A study of Mus musculus with 30 samples.

Results

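The 2 cell layers of the thymic vessel wall were compared in newborn mice: endothelial cells, which line the vessel, and CD146-positive mesenchymal cells, which were sorted as the mural layer around it. The comparison used 12 of the 30 libraries of the study, all 6 of endothelium and all 6 of CD146-positive mesenchyme, chosen by their labels alone. Of 18847 protein-coding genes in the deposited table, the 13755 that reached 1 FPKM (sequenced fragments corrected for gene length and for the size of the library) in at least 2 of the 12 libraries were tested. The study sorted 5 stromal populations of the neonatal thymus to follow the loss of vascular endothelial growth factor (VEGF) signalling.

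All mice were of strain B6.SJL, of mixed gender and 3 days old when the thymus was taken. Each population had 2 control libraries, from mice that received hFc (human Fc protein), and 4 Trap libraries, from mice that received aflibercept (VEGF-Trap), a soluble decoy that binds VEGF-A. Both populations were gated as CD3-, CD4-, CD8-, CD45-, Ter119- and EpCAM-, that is, without T-cell, leukocyte, erythroid and epithelial surface markers. Endothelium was CD31+ and the mesenchyme CD31- and CD146+. The labels do not state how many animals a library holds, so the p-values below measure only the spread between these libraries, which may be technical. Levels written with ± are means with the SD over the 6 libraries of a population (n = 6), and where 2 levels are set against each other, the endothelial one comes first.

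In small vessels, the endothelium and the pericytes or smooth muscle cells around it share a basement membrane and exchange signals. Endothelial platelet-derived growth factor recruits mural cells, mural angiopoietin quietens the endothelium, and Notch ligands on one cell act on Notch receptors of its neighbour. Mural cells also contract and relax in response to endothelial mediators such as endothelin and nitric oxide, and so set vessel calibre. In the thymus, vessels are the route by which progenitors enter and mature T cells leave.

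The labels were checked against markers. Pecam1, which encodes the sorting marker CD31, ranged from 296 to 339 FPKM (median 323) in endothelium and from 1.58 to 2.91 FPKM (median 2.77) in mural cells. The 2 ranges lay far apart, which the CD31 gate itself sets, so this difference is no finding. Rgs5, a regulator of G-protein signalling that marks pericytes, ranged from 47.1 to 86.1 FPKM (median 70.8) in endothelium and from 2783 to 4382 FPKM (median 3999) in mural cells, and here every mural library lay above every endothelial one. Mcam, which encodes CD146 and gated the mesenchyme, ranged from 83.7 to 136 FPKM (median 112) in endothelium and from 105 to 149.8 FPKM (median 138) in mural cells. The groups overlapped, and the log2 difference of -0.26 ± 0.13 (SE; adjusted p = 0.133, 95% confidence interval -0.53 to 0.02) did not pass the test. The gate on CD146 was set within CD31- cells only. Without CD146 control replicate 1, Mcam passed, with a difference of -0.34 and an adjusted p of 0.0477. A difference is given throughout as the endothelial minus the mural mean of log2(FPKM + 1), so positive values are higher in endothelium, and the added 1 makes it smaller than the true fold change for genes at low levels.

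Some libraries carried markers of other cells. The summed level of 6 cortical epithelial markers was 5.82 to 57.8 FPKM (median 10.2) in endothelium and 5.31 to 15.1 FPKM (median 8.12) in mural cells, and that of 7 medullary epithelial markers 0.92 to 13.8 FPKM (median 3.01) and 0.62 to 2.69 FPKM (median 1.22). The highest endothelial value of both lists came from Endo Trap replicate 2, which also had the highest sum of thymocyte markers among the 12 libraries, 12.8 FPKM. Most of that sum was Cd8a at 9.9 FPKM, and each other thymocyte marker there stood at 0.99 FPKM or less. Lck, at 0.19 FPKM, was lower there than in any other endothelial library. The 5 Schwann cell markers summed to 5.25 to 20.9 FPKM (median 12.8) in mural cells against 0.01 to 4.55 FPKM (median 1.19) in endothelium. The 6 erythroid markers summed to 10.6 to 131 FPKM (median 78.4) in endothelium against 8.82 to 30.5 FPKM (median 9.76) in mural cells. Of these, 4 were higher in endothelium, but Alas2 was higher in mural cells, at 0.96 to 4.53 FPKM against 7.34 to 12.1 FPKM. In the CD146 Trap libraries, the globin genes Hba-a1, Hba-a2, Hbb-bs and Hbb-bt stood at 0 to 0.21 FPKM. Of 10 fibroblast markers, 9 were tested, and 6 were higher in mural cells and 2 in endothelium. Among them, Col1a1 stood at 2.19 ± 1.49 FPKM in endothelium against 83.7 ± 53.7 FPKM in mural cells, and Ly6a, which has near-identical relatives, at 353 ± 75.3 against 3.20 ± 2.10 FPKM. CD146 control replicate 1 and CD146 Trap replicate 2 held the highest mural values of Col1a1 (134 and 166 FPKM), Itga8 (106 and 123) and Ntrk3 (7.46 and 9.92). The other mural libraries reached at most 71.0, 53.2 and 3.42 FPKM. These genes were picked after their values were seen, and how many genes share this order was not counted. No marker list except that of leukocytes in mural cells and that of thymocytes in mural cells had a member at 0 in every library of a population. How much these cells contribute to the differences below was not tested. The sum of FPKM per library was 184608 to 202688, 10298 to 11694 genes reached 1 FPKM, and the correlation of log2(FPKM + 1) across genes was 0.853 to 0.937 between endothelial libraries, 0.91 to 0.961 between mural libraries and 0.685 to 0.746 between the layers. The read depth behind the values is unknown.

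Between the layers, 36.8% of genes differed. Of the 13755 genes tested, 2164 (15.7%) were higher in endothelium and 2892 (21.0%) were higher in mural cells at a Benjamini-Hochberg adjusted p under 0.05, and these shares are the background for every count below. A difference of at least 2-fold was found for 1199 genes (8.72%) in endothelium and 1534 (11.2%) in mural cells. All 6 endothelial libraries lay above all 6 mural ones for 1335 genes (9.71%), and the reverse held for 1703 (12.4%). The median difference over all genes tested was -0.10. In bulk libraries, fewer cells of a type and less RNA per cell cannot be told apart. Without Endo Trap replicate 2 the counts were 2260 and 2950.

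The 10 largest endothelial differences were held by Cdh5, Gvin1, Aplnr, Ptprb, Sox18, Cd36, Csf2rb, Csf2rb2, Adgrl4 and Sox7. In both directions, only called genes without overlap between the layers were eligible, at a mean of 5 FPKM or more in the higher layer. The lack of overlap in these genes was thus set by the choice and is no finding. Cdh5, which encodes VE-cadherin, the adhesion protein of endothelial junctions, ranged from 530.2 to 645 FPKM (median 609) in endothelium and from 0.63 to 1.54 FPKM (median 1.14) in mural cells. No mural library approached the endothelial range, and the difference was 8.14 ± 0.12 (SE; adjusted p = 9.64e-16). Aplnr, the receptor of the peptide apelin, ranged from 178 to 281 FPKM (median 201) in endothelium and from 0.17 to 1.15 FPKM (median 0.51) in mural cells, and Ptprb, the phosphatase that acts on the Tie2 receptor, ranged from 206 to 274 FPKM (median 255) in endothelium and from 0.39 to 1.89 FPKM (median 0.83) in mural cells. Cd36, a fatty acid transporter and receptor of thrombospondin, ranged from 330.5 to 616 FPKM (median 479) in endothelium and from 1.86 to 6.64 FPKM (median 3.64) in mural cells. Sox18 and Sox7, transcription factors of vascular development, had means of 137 ± 29.3 FPKM in endothelium against 0.30 ± 0.20 FPKM in mural cells and 146 ± 15.1 against 0.59 ± 0.42 FPKM. Csf2rb and Csf2rb2, cytokine receptor chains, and Gvin1, an interferon-induced GTPase, have near-identical copies in the mouse genome between which reads may have been split, and their levels are uncertain.

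At the other end, the 10 largest mural differences were held by Acta2, Myh11, Map3k7cl, Pi15, Postn, Tpm2, Ccl11, Rgs5, Ndrg2 and Actg2. Acta2, Myh11, Tpm2 and Actg2 encode proteins of the contractile apparatus. Acta2, smooth muscle actin, ranged from 1.56 to 18.8 FPKM (median 3.49) in endothelium and from 451 to 1217 FPKM (median 696) in mural cells. The highest endothelial value came from Endo control replicate 1, and the difference was -7.15 ± 0.38 (SE; adjusted p = 1.08e-09). Myh11, smooth muscle myosin heavy chain, ranged from 2.38 to 7.10 FPKM (median 3.71) in endothelium and from 399 to 479.7 FPKM (median 459) in mural cells. Tpm2, a tropomyosin, averaged 2.21 ± 1.03 FPKM in endothelium against 171 ± 34.7 FPKM in mural cells, and Actg2, the enteric smooth muscle actin, 0.29 ± 0.49 against 55.5 ± 19.9 FPKM. Postn, a matrix protein that binds integrins, averaged 8.44 ± 1.68 against 524 ± 25.2 FPKM, and Ccl11, the chemokine eotaxin, 3.35 ± 1.72 against 221 ± 39.8 FPKM.

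**Figure D1:**
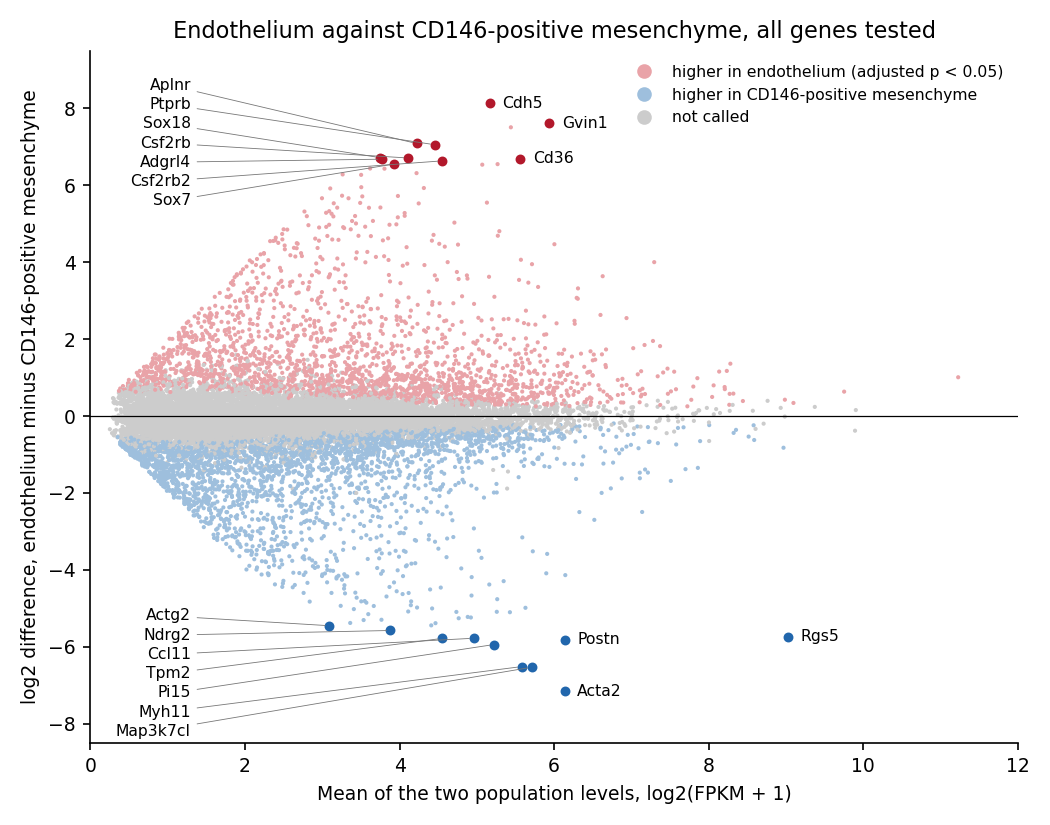
Difference between endothelium and CD146-positive mesenchyme (vertical axis, log2, positive is higher in endothelium) against the mean of the 2 population levels (horizontal axis, log2(FPKM + 1)) for the 13755 genes tested. Pale red and blue points are the 2164 and 2892 genes called in each direction, and the 10 named genes in each direction, from Cdh5 to Sox7 and from Acta2 to Actg2, lie at the edges of the cloud.

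The gene lists of each layer fell on its own side. All 22 endothelial core genes tested were higher in endothelium, against 15.7% of all genes, and their median difference was 5.18. Of 19 pericyte genes, 18 were higher in mural cells, against 21.0% of all genes, with a median of -4.14, and Mcam was the other member. Cspg4, the proteoglycan NG2, averaged 0.60 ± 0.40 FPKM in endothelium against 25.6 ± 3.55 FPKM in mural cells, and Abcc9, a subunit of a potassium channel of pericytes, 16.0 ± 4.66 against 293 ± 45.0 FPKM. Of 20 genes of the contractile apparatus, 17 were higher in mural cells and none in endothelium, and the median was -3.30. Mylk, the kinase that triggers contraction by phosphorylating myosin light chain, ranged from 11.9 to 16.9 FPKM (median 14.3) in endothelium and from 147 to 208 FPKM (median 184) in mural cells. The 2 ranges did not overlap. Myl9, the light chain itself, ranged from 2.37 to 9.31 FPKM (median 5.25) in endothelium and from 180.1 to 258 FPKM (median 219) in mural cells, and Tpm1, a tropomyosin that endothelium also held, ranged from 46.8 to 77.7 FPKM (median 57.7) in endothelium and from 301 to 378 FPKM (median 324) in mural cells. These lists were drawn up with earlier results of these data known, so their direction is neither a finding nor an independent check of the labels.

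Transcription factors with known vascular roles were divided likewise, with exceptions in both lists. Of 20 endothelial factors, 17 were higher in endothelium and 1 in mural cells. Among the 10 of smallest p were Bcl6b at 81.3 ± 15.2 FPKM in endothelium against 0.59 ± 0.42 FPKM in mural cells, the ETS factors Fli1 at 76.5 ± 10.5 against 2.75 ± 0.84 FPKM and Erg at 105 ± 15.0 against 1.35 ± 1.59 FPKM, Sox17 at 29.0 ± 14.6 against 0.04 ± 0.04 FPKM and Tal1, a factor shared with blood cells, at 24.9 ± 7.49 against 0.26 ± 0.24 FPKM. Foxo1, which restrains endothelial growth, averaged 80.8 ± 9.10 against 15.9 ± 1.89 FPKM, and Elk3, a repressor of the ETS family, 67.8 ± 6.44 against 15.2 ± 1.88 FPKM. The exception was Nr2f2, known as the venous factor COUP-TFII. Nr2f2 ranged from 9.49 to 17.0 FPKM (median 13.1) in endothelium and from 37.1 to 63.6 FPKM (median 48.9) in mural cells, a difference of -1.79 ± 0.15 (SE; adjusted p = 1.82e-07) in favour of the mural layer, and the groups did not overlap. It was named after its values were seen.

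Of 20 mural factors, 16 were higher in mural cells and 2 in endothelium. Prrx1, a homeobox factor of mesenchyme, averaged 0.71 ± 0.23 FPKM in endothelium against 51.1 ± 4.10 FPKM in mural cells. Myocd, the coactivator that switches on smooth muscle genes, ranged from 0.02 to 0.61 FPKM (median 0.14) in endothelium and from 18.6 to 33.3 FPKM (median 25.0) in mural cells, with all mural libraries above all endothelial ones. Ebf2, Tbx2, Foxs1, Nr2f1 and Tbx18 followed the same direction, with means in mural cells from 4.21 to 20.2 FPKM and in endothelium from 0.22 to 0.52 FPKM. Ebf1, a factor of B cells and pericytes, was present in both layers, at 43.8 ± 7.51 against 95.1 ± 9.86 FPKM. Meox1, a homeobox factor of somites, ran against its list. Meox1 ranged from 37.8 to 78.3 FPKM (median 56.7) in endothelium and from 1.85 to 4.95 FPKM (median 2.13) in mural cells, and its difference was 4.06 ± 0.19 (SE; adjusted p = 2.07e-10). The other exception was Zfpm2, a cofactor of GATA factors, at 4.29 ± 0.75 against 2.40 ± 1.86 FPKM, whose adjusted p of 0.0477 exceeded 0.05 when any of 10 single libraries was left out and then reached 0.109.

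**Figure D2:**
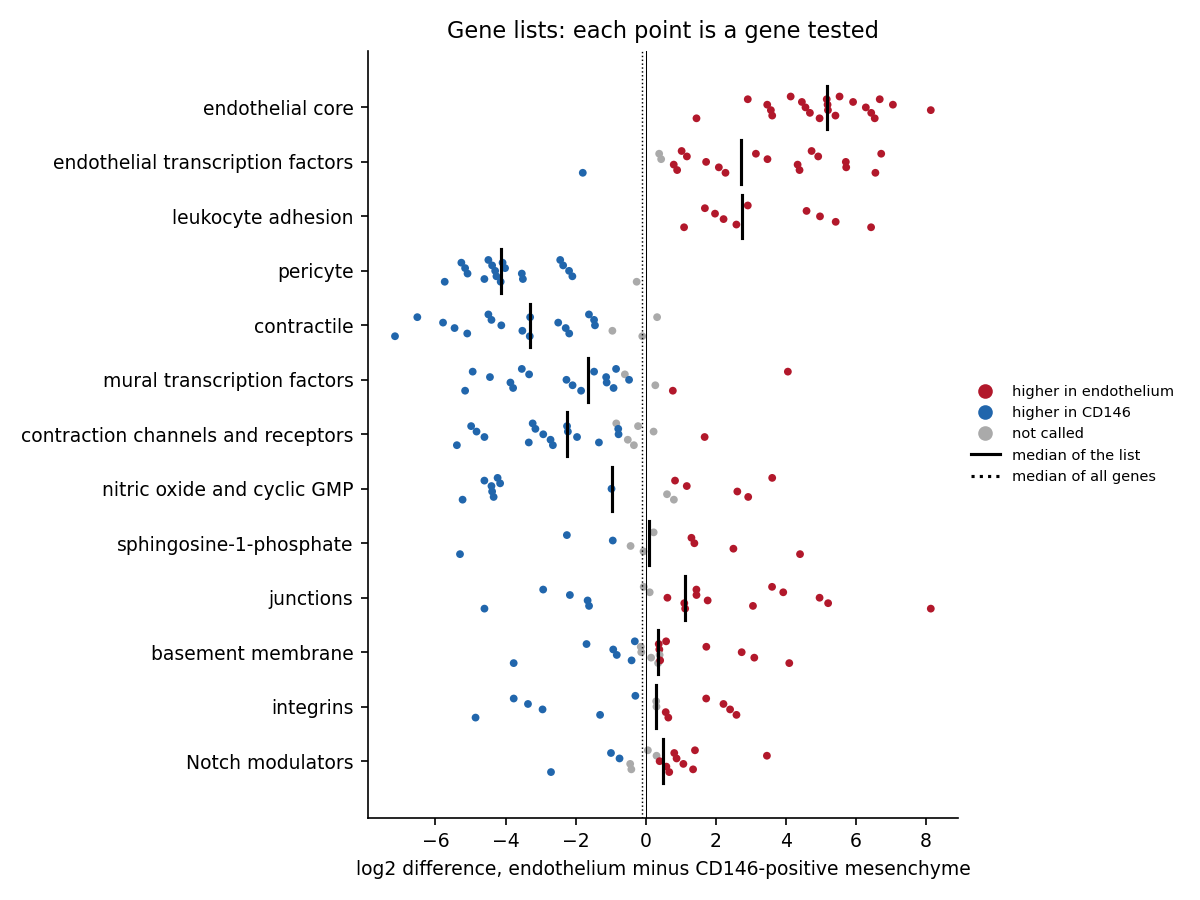
Difference between the layers (horizontal axis, log2, positive is higher in endothelium) of each gene tested in 13 lists. Red and blue points passed the test, grey points did not, short bars are list medians and the dotted line is the median of all genes at -0.10. The endothelial core list has its median at 5.18 and the pericyte list at -4.14, and the lists of junctions, basement membrane, integrins and Notch modulators spread to both sides.

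Promoters of 3 gene lists (endothelial core, contractile and Notch target genes) were searched for short letter patterns known from these cells, as a description only. The window runs from 250 bases before to 50 after a RefSeq start site on GRCm38.p6, and 27025 genes have 1 or more such windows. AGGAAG, the letters at the core of an ETS site, was found on either strand in 9 of 13 endothelial core genes with a window (69.2%), against 38.4% of all genes and 35.4% of the 32851 windows. The CArG box, bound by serum response factor, was found in 2 of 17 contractile genes with a window (11.8%), Myl9 and Filip1l, against 1.81% of all genes and 1.63% of windows. GTGGGAA, the letters of an RBPJ site through which Notch acts, was found in 2 of 3 Notch target genes with a window (66.7%), Hey2 and Hes5, the second of which was not tested, against 7.25% of genes and 6.38% of windows. On the same strand, matches of GTGGGAA and AGGAAG can overlap by a single end letter only. A match is not shown to be a bound site. The 5 windows below carry the patterns in capitals within lower case, read 5′ to 3′ on the strand of the gene, and were chosen as examples of endothelial, contractile and Notch target genes named in the text. Tie1 lies at chr4:118489800-118490099 (minus strand), Robo4 at chr9:37401722-37402021 (plus), Eng at chr2:32646345-32646644 (plus), Myl9 at chr2:156775214-156775513 (plus) and Hey2 at chr10:30842734-30843033 (minus).
Tie1: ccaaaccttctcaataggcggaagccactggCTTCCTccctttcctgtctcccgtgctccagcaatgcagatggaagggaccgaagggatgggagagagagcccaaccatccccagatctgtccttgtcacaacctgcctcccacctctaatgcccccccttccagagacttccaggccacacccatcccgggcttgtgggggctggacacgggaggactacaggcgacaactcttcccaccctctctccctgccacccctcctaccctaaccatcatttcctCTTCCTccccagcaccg
Robo4: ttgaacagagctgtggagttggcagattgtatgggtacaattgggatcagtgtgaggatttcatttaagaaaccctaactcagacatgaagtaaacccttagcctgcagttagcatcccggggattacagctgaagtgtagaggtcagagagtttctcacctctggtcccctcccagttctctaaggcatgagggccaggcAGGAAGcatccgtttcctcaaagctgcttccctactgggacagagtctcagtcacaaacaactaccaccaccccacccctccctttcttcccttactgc
Eng: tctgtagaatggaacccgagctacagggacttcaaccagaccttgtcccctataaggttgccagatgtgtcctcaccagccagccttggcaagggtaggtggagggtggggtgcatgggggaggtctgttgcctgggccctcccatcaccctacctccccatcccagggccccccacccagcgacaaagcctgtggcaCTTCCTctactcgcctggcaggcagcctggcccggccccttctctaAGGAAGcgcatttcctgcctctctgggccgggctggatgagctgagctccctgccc
Myl9: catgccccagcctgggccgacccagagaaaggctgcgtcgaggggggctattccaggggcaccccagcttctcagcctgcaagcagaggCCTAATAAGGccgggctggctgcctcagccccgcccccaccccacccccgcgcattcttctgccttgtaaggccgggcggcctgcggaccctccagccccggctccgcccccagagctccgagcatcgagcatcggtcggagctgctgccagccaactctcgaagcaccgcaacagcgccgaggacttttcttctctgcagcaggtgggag
Hey2: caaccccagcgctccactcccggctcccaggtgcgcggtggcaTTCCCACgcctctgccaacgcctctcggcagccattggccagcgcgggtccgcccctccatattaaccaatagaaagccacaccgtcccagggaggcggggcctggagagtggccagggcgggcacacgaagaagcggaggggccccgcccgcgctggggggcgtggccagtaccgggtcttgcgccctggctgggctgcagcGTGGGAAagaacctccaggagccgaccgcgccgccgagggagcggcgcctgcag
Tie1, an orphan receptor that pairs with Tie2, averaged 66.0 ± 9.03 FPKM in endothelium against 0.10 ± 0.12 FPKM in mural cells, Robo4, a guidance receptor, 84.6 ± 18.1 against 0.08 ± 0.05 FPKM, and Eng, a coreceptor of transforming growth factor beta, 168 ± 18.8 against 14.3 ± 1.60 FPKM.

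Ligands and receptors were then set out in 116 known pairs from 26 families, comprising 93 ligand and 84 receptor genes. The pairs, like all gene lists here, were written with earlier results of these data known. Their shares of called genes therefore describe the chosen genes and are no finding of enrichment. Of the 164 of these 177 genes that were tested, 72 (43.9%) were higher in endothelium and 70 (42.7%) in mural cells, against 15.7% and 21.0% of all genes. By role, 30 of 83 ligands (36.1%) were higher in endothelium and 37 (44.6%) in mural cells, while of 81 receptors 42 (51.9%) were higher in endothelium and 33 (40.7%) in mural cells. The 6 endothelial libraries all lay above the 6 mural ones for 59 of these genes (against 9.71% of all genes), and the reverse held for 50 (against 12.4%). A pair was sorted by the calls of its 2 genes. In 13 pairs the ligand was higher in endothelium and the receptor in mural cells, and in 22 the ligand was higher in mural cells and the receptor in endothelium. Both genes were higher in endothelium in 25 pairs and both in mural cells in 17. The remaining 39 pairs were not sorted because a gene did not pass the test or was not tested. Many pairs share a gene, so they are not independent of each other, and the values are transcript levels and not protein or signalling.

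**Figure D3:**
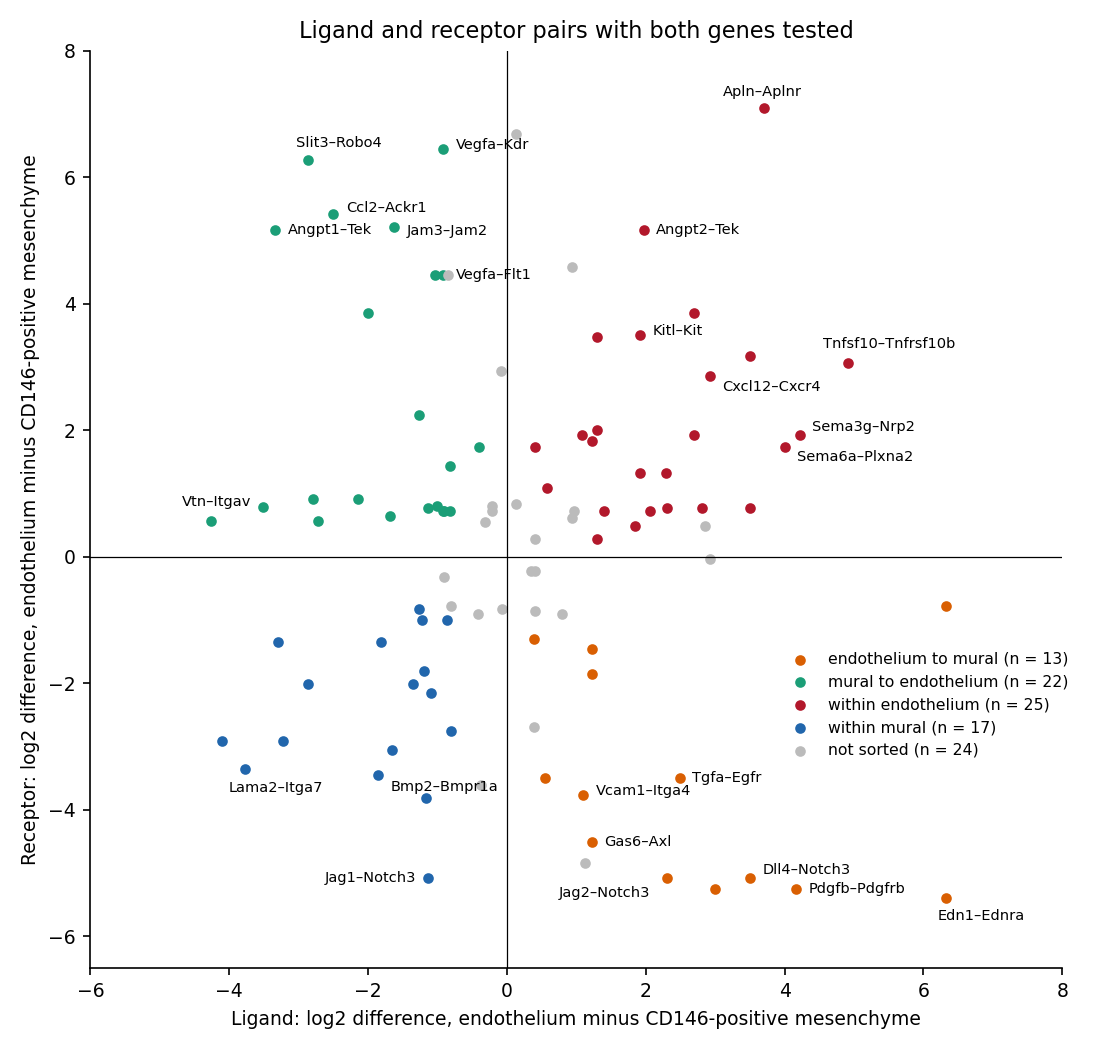
Each point is 1 of 101 pairs with both genes tested, at the difference of its ligand (horizontal axis, log2, positive is higher in endothelium) and of its receptor (vertical axis, same scale). Orange marks the 13 pairs from endothelium to mural cells, among them Edn1 with Ednra and Pdgfb with Pdgfrb at the lower right, and green the 22 pairs from mural cells to endothelium, among them Angpt1 with Tek at the upper left.

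The pairs that ran from endothelium to mural cells were led by endothelin, platelet-derived growth factor and Notch. Edn1, the precursor of the vasoconstrictor endothelin-1, ranged from 90.9 to 244 FPKM (median 173) in endothelium and from 0.30 to 2.48 FPKM (median 0.92) in mural cells. The endothelial libraries all lay far above the mural ones, with the lowest endothelial values in the 2 controls, and the difference was 6.32 ± 0.27 (SE; adjusted p = 1.15e-10). Its receptor Ednra, which drives contraction of smooth muscle, ranged from 2.18 to 2.86 FPKM (median 2.31) in endothelium and from 113 to 181 FPKM (median 139.8) in mural cells, the reverse order, with a difference of -5.39 ± 0.12 (SE; adjusted p = 1.14e-13). Ednrb, the receptor that endothelium is known to carry, was present in both layers at 35.3 ± 11.7 FPKM in endothelium against 60.0 ± 11.5 FPKM in mural cells, and was also higher in mural cells (-0.78 ± 0.18, adjusted p = 0.0031). With all 30 libraries in the fit, Ednrb did not pass (adjusted p = 0.0718). In GRCm38, Edn1 spans 42301476 to 42307990 on chromosome 13 (plus strand) and Ednra 77663031 to 77724464 on chromosome 8 (minus strand). Ece1, the enzyme that cleaves the endothelin precursor, averaged 348 ± 34.0 against 27.1 ± 2.58 FPKM, on the side of the ligand.

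Pdgfb, the ligand through which endothelium attracts pericytes, ranged from 49.0 to 69.4 FPKM (median 53.6) in endothelium and from 0.86 to 3.89 FPKM (median 2.27) in mural cells. Its receptor Pdgfrb ranged from 2.04 to 5.0 FPKM (median 3.12) in endothelium and from 130.0 to 196 FPKM (median 173) in mural cells. Neither gene's ranges overlapped between the layers, and the differences were 4.16 ± 0.20 for the ligand and -5.26 ± 0.16 for the receptor (SE; adjusted p = 2.83e-10 and 2.81e-12). Pdgfd, another ligand of the same receptor, averaged 18.1 ± 3.31 FPKM in endothelium against 2.06 ± 2.41 FPKM in mural cells, and thus shared the direction of Pdgfb. Pdgfa, by contrast, was higher in mural cells, at 34.7 ± 16.0 against 76.8 ± 14.1 FPKM. Its receptor Pdgfra, which marks fibroblasts, was low in both layers, at 0.62 ± 0.51 against 2.16 ± 0.69 FPKM. Pdgfb spans 79995874 to 80014977 on chromosome 15 (minus strand).

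In the Notch family, delta-like ligands and the receptors Notch1 and Notch4 were higher in endothelium, and Notch3 was higher in mural cells. Notch3 ranged from 0.20 to 2.76 FPKM (median 2.60) in endothelium and from 72.4 to 117 FPKM (median 102) in mural cells, with a difference of -5.08 ± 0.25 (SE; adjusted p = 5.12e-10). The 2 layers did not overlap, and Endo Trap replicate 4 gave the lowest value. Dll4, the ligand of arterial and sprouting endothelium, ranged from 10.1 to 30.9 FPKM (median 20.5) in endothelium and from 0.33 to 1.35 FPKM (median 0.72) in mural cells, and Jag2 averaged 5.66 ± 1.73 FPKM in endothelium against 0.31 ± 0.15 FPKM in mural cells. Jag1, the ligand that signals between mural neighbours as well as from endothelium, was higher in mural cells but present in both, and it ranged from 24.1 to 47.6 FPKM (median 30.5) in endothelium and from 64.0 to 83.3 FPKM (median 69.5) in mural cells. Notch1 averaged 29.0 ± 3.32 against 16.6 ± 2.51 FPKM and Notch4, an endothelial receptor, 14.9 ± 3.34 against 0.78 ± 0.45 FPKM. Among the 4 of 6 Notch targets that were tested, Heyl and Hey2 were higher in mural cells and Hey1 and Hes1 in endothelium. Heyl, the transcriptional repressor downstream of Notch3, ranged from 0.09 to 2.39 FPKM (median 1.03) in endothelium and from 53.2 to 85.9 FPKM (median 66.9) in mural cells. Hey2 averaged 1.26 ± 1.02 against 7.86 ± 2.48 FPKM, Hey1 43.4 ± 13.5 against 19.6 ± 8.08 FPKM and Hes1 28.5 ± 6.40 against 17.6 ± 7.18 FPKM. Of 16 Notch modulators tested, 9 were higher in endothelium and 3 in mural cells. Mfng, a glycosyltransferase that alters which ligands a Notch receptor binds, averaged 10.8 ± 2.56 against 0.06 ± 0.09 FPKM, Adam10, the protease that cleaves the receptor, 41.0 ± 8.10 against 15.2 ± 1.34 FPKM, and Dlk1, a ligand that lacks the activating domain, 0.34 ± 0.27 against 7.86 ± 2.64 FPKM.

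Other pairs of the same direction joined Gas6, epidermal growth factor receptor ligands, an ephrin and Vcam1 to mural receptors. Gas6, the ligand of the TAM receptors, ranged from 7.32 to 26.5 FPKM (median 12.1) in endothelium and from 1.76 to 11.7 FPKM (median 4.89) in mural cells. The groups overlapped through CD146 control replicate 1 (8.11 FPKM) and CD146 Trap replicate 2 (11.71), and the difference of 1.22 ± 0.34 still passed (SE; adjusted p = 0.0103). Its receptor Axl ranged from 1.72 to 4.45 FPKM (median 3.73) in endothelium and from 87.0 to 102 FPKM (median 99.9) in mural cells, with no overlap and a difference of -4.51 ± 0.16 (SE; adjusted p = 1.18e-11). Egfr, the epidermal growth factor receptor, averaged 0.55 ± 0.50 FPKM in endothelium against 15.9 ± 1.90 FPKM in mural cells. Its ligand Tgfa averaged 6.58 ± 4.39 against 0.11 ± 0.09 FPKM, and Hbegf 74.6 ± 9.59 against 53.0 ± 19.2 FPKM. The call for Hbegf (adjusted p = 0.033) was lost when any of 8 single libraries was left out, with an adjusted p of up to 0.0851. Efnb2, the ephrin of arteries and of mural cells, averaged 73.0 ± 11.8 against 30.3 ± 2.84 FPKM. Its receptors fell on opposite sides, with Epha4 at 6.64 ± 1.33 against 26.8 ± 5.45 FPKM and Ephb4, the receptor of veins, at 28.5 ± 3.17 against 7.34 ± 1.42 FPKM. Itga4, the integrin subunit that binds Vcam1, averaged 0.41 ± 0.28 against 18.3 ± 4.82 FPKM, and Vcam1 79.9 ± 14.7 against 36.5 ± 3.85 FPKM.

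**Figure D4:**
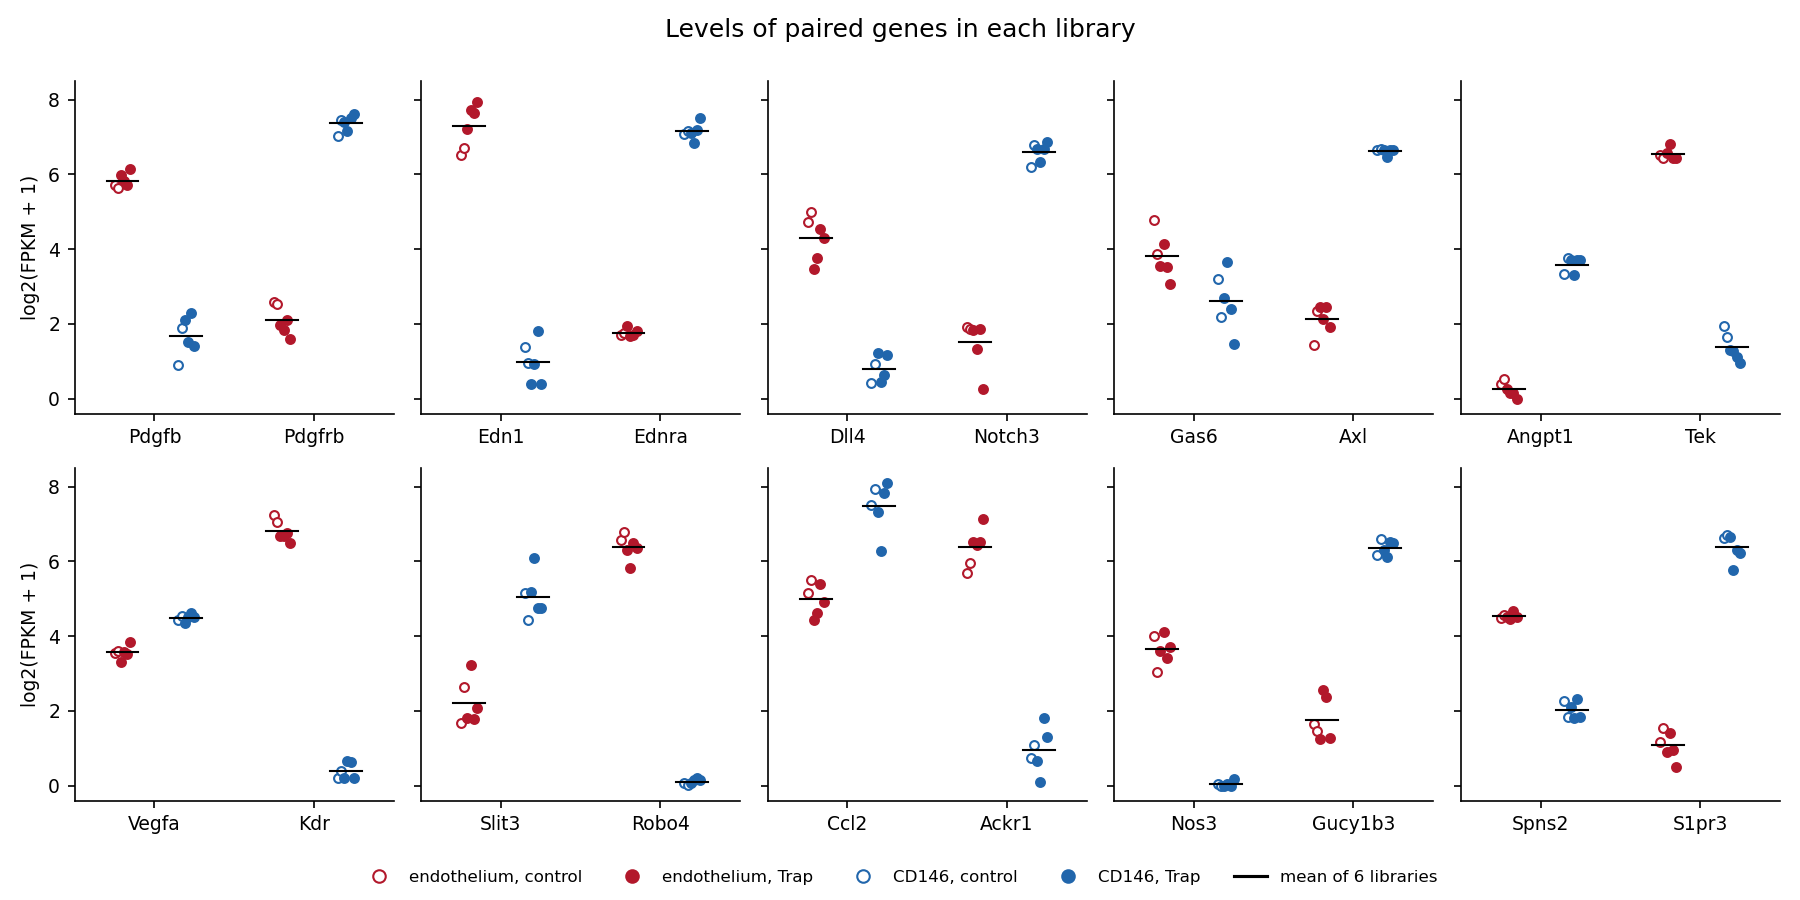
Level in each library (vertical axis, log2(FPKM + 1)) of 10 pairs of genes in endothelium (red) and CD146-positive mesenchyme (blue), with controls as open and Trap libraries as filled circles and the mean of 6 libraries as a bar. The ligands Pdgfb, Edn1 and Dll4 are high in red and their receptors in blue, the reverse holds for Angpt1 with Tek and Slit3 with Robo4, and the libraries of the layers overlap only for Gas6.

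In the opposite direction, from mural cells to endothelium, the angiopoietin, VEGF, Slit and chemokine families were sorted. Angpt1, the ligand that activates the Tie2 receptor and stabilises vessels, ranged from 0 to 0.45 FPKM (median 0.15) in endothelium and from 8.86 to 12.6 FPKM (median 12.1) in mural cells. Every mural library lay above every endothelial one, and the difference was -3.34 ± 0.19 (SE; adjusted p = 2.31e-09). Tek, which encodes Tie2, ranged from 85.5 to 111 FPKM (median 88.6) in endothelium and from 0.94 to 2.82 FPKM (median 1.45) in mural cells, with a difference of 5.17 ± 0.15 (SE; adjusted p = 1.59e-12). Angpt2, which can oppose Angpt1 and is released by endothelium, ran the other way and formed a pair within endothelium. Angpt2 ranged from 59.7 to 95.9 FPKM (median 72.9) in endothelium and from 13.2 to 22.3 FPKM (median 18.9) in mural cells, a difference of 1.97 ± 0.13 (SE; adjusted p = 1.24e-08). Mural cells held Angpt2 at a mean of 18.3 FPKM and Angpt1 at 11.1 FPKM, both per length. Angpt1 spans 42424723 to 42676977 on chromosome 15 (minus strand), and Tek 94739289 to 94874976 on chromosome 4 (plus strand).

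Vegfa, which encodes a growth factor that Trap binds, ranged from 8.99 to 13.5 FPKM (median 10.8) in endothelium. In mural cells, Vegfa ranged from 19.5 to 23.5 FPKM (median 21.8), a difference of -0.92 ± 0.12 (SE; adjusted p = 1.56e-05) with no overlap. The receptors were far higher in endothelium. Kdr, the main signalling receptor, averaged 114 ± 22.9 FPKM in endothelium against 0.32 ± 0.20 FPKM in mural cells, and Flt1, the decoy-like receptor of higher affinity, 126 ± 12.2 against 4.77 ± 0.63 FPKM. Neither receptor overlapped between the layers. Pgf, a ligand of Flt1, averaged 4.05 ± 2.38 against 8.64 ± 2.49 FPKM, and Figf, which encodes VEGF-D, 0.36 ± 0.46 against 5.53 ± 4.20 FPKM, whereas Vegfc, the other ligand of the lymphatic receptor Flt4, was higher in endothelium at 19.7 ± 6.81 against 2.45 ± 1.75 FPKM. Flt4 itself averaged 19.9 ± 5.46 against 0.43 ± 0.26 FPKM. The 6 lymphatic endothelium markers, of which Flt4 is one, summed to 24.9 to 119 FPKM (median 74.0) in endothelium and 20.2 to 29.4 FPKM (median 22.2) in mural cells, and the part of lymphatic cells in the levels of Flt4 and Vegfc was not tested. Nrp1, a coreceptor shared with semaphorins, was present in both layers at 35.4 ± 4.23 against 21.1 ± 1.79 FPKM, and Nrp2 averaged 71.0 ± 5.61 against 18.7 ± 5.90 FPKM.

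Slit3, a secreted guidance cue, ranged from 2.17 to 8.35 FPKM (median 2.86) in endothelium and from 20.8 to 67.2 FPKM (median 30.3) in mural cells, and Robo4, the endothelial member of its receptor family, ranged from 55.6 to 109.5 FPKM (median 85.0) in endothelium and from 0.01 to 0.16 FPKM (median 0.08) in mural cells. Neither gene overlapped between the layers, and the differences were -2.86 ± 0.30 and 6.28 ± 0.16 (SE; adjusted p = 1.99e-06 and 3.44e-13). Robo1, the more widespread receptor, was mural instead, at 0.76 ± 0.68 FPKM in endothelium against 5.83 ± 1.56 FPKM in mural cells. Slit3 therefore also counted in a pair within mural cells. Ccl2, the chemokine of monocytes, ranged from 20.4 to 44.0 FPKM (median 31.8) in endothelium and from 77.2 to 273 FPKM (median 205) in mural cells, and Ackr1, the atypical receptor that carries chemokines across venules, ranged from 50.6 to 139 FPKM (median 88.4) in endothelium and from 0.06 to 2.53 FPKM (median 0.91) in mural cells. Again the libraries of the layers did not mix, with differences of -2.50 ± 0.26 and 5.42 ± 0.26 (SE; adjusted p = 1.56e-06 and 4.02e-10). Hgf, the ligand of Met, was low, at 0.20 ± 0.22 against 1.86 ± 0.48 FPKM, and Met averaged 6.36 ± 1.81 against 0.57 ± 0.46 FPKM.

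In the transforming growth factor beta superfamily, 3 ligands were higher in mural cells and had a receptor higher in endothelium. Tgfb2 averaged 6.69 ± 2.23 FPKM in endothelium against 33.2 ± 12.3 FPKM in mural cells, Tgfb3 2.07 ± 2.00 against 17.0 ± 2.83 FPKM and Inhba, a subunit of activin, 0.53 ± 1.01 against 15.5 ± 6.96 FPKM. Their coreceptor Tgfbr3 averaged 55.3 ± 9.44 against 28.6 ± 3.97 FPKM, and the activin receptor Acvr2a 36.0 ± 5.60 against 20.5 ± 3.53 FPKM. Inhba stood out in Endo Trap replicate 2, the library with the highest sums of epithelial markers, at 2.58 FPKM against at most 0.33 in the other endothelial libraries. Tgfb1 and the receptors Tgfbr2 and Eng lay on the endothelial side, with Tgfb1 at 13.2 ± 2.90 against 4.73 ± 0.89 FPKM, Tgfbr2 at 45.6 ± 3.73 against 10.8 ± 2.15 FPKM and Eng as given with its promoter. Bmp4 and Bmp6, ligands of the bone morphogenetic protein branch, were also endothelial, at 43.0 ± 24.3 against 8.71 ± 7.63 FPKM and 18.1 ± 5.51 against 4.29 ± 2.06 FPKM, together with the receptor Bmpr2 at 160.2 ± 22.1 against 62.9 ± 5.71 FPKM. Bmp2 and the receptor Bmpr1a formed a mural pair instead, at 11.6 ± 5.73 against 41.2 ± 10.5 FPKM and 6.04 ± 2.94 against 72.0 ± 13.6 FPKM.

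Genes of matrix and contact proteins were also sorted into pairs between the layers. Fn1, fibronectin, averaged 101 ± 22.8 FPKM in endothelium against 323 ± 30 FPKM in mural cells and its integrin subunit Itga5 96.0 ± 25.4 against 59.8 ± 7.98 FPKM. Vtn, vitronectin, a pericyte product, averaged 1.34 ± 1.58 against 37.9 ± 10.7 FPKM, and Itgav, which binds it, 54.6 ± 12.8 against 35.8 ± 4.43 FPKM. The libraries overlapped for Itgav, whose difference was 0.16 in controls alone (adjusted p = 0.644) and 0.78 in Trap libraries alone (adjusted p = 0.00204). Jam3 and Jam2, immunoglobulin proteins that bind each other, averaged 8.17 ± 7.27 against 20.9 ± 4.99 FPKM and 101 ± 19.4 against 1.76 ± 0.55 FPKM, and Jam3 overlapped between the layers while Jam2 did not. Thy1, a surface protein that binds integrins, averaged 2.00 ± 1.83 against 16.2 ± 3.37 FPKM. Across 19 basement membrane genes, 8 were higher in endothelium and 6 in mural cells, with a median of 0.36. Vwa1, a small matrix protein, averaged 43.2 ± 8.24 against 1.65 ± 0.79 FPKM, Col15a1, a collagen of vessel walls, 122 ± 7.83 against 19.1 ± 9.57 FPKM, and Hspg2, perlecan, 179 ± 14.6 against 56.7 ± 23.5 FPKM, each higher in endothelium. Lama2, a laminin chain of muscle, ranged from 0.08 to 2.57 FPKM (median 1.57) in endothelium and from 25.2 to 39.1 FPKM (median 30.9) in mural cells, and its integrin subunit Itga7 ranged from 0.07 to 2.02 FPKM (median 0.93) in endothelium and from 12.3 to 22.4 FPKM (median 19.5) in mural cells, a pair within mural cells with no overlap in either gene. Of 14 integrin subunits, 6 were higher in each layer. Itga2 averaged 37.3 ± 8.51 against 5.33 ± 1.09 FPKM, Itga6, which binds laminin, 77.5 ± 11.6 against 22.7 ± 3.73 FPKM, and Itgb4, the partner of Itga6, 16.5 ± 7.07 against 2.15 ± 0.45 FPKM, while Itga8 averaged 1.13 ± 0.97 against 65.3 ± 39.5 FPKM and Itga1, a collagen receptor, 24.8 ± 3.88 against 62.4 ± 9.14 FPKM.

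Of 19 junction genes, 12 were higher in endothelium and 5 in mural cells. Cldn5, the tight junction claudin of endothelium, averaged 38.1 ± 3.45 FPKM in endothelium against 0.28 ± 0.31 FPKM in mural cells, and Tjp1, its scaffold, 149 ± 13.0 against 53.8 ± 4.07 FPKM. The 5 mural genes were Jam3, the cadherins Cdh2, Cdh6 and Cdh11 and the connexin Gjc1. Cdh6 averaged 0.38 ± 0.23 against 32.2 ± 3.92 FPKM, and Cdh2, N-cadherin, which joins pericytes to endothelium, 1.68 ± 1.28 against 17.9 ± 2.35 FPKM. Cdh11 averaged 0.88 ± 1.17 against 7.34 ± 4.45 FPKM and Gjc1 15.0 ± 4.54 against 48.6 ± 10.4 FPKM. F11r, a junction protein of the same family as Jam3, was endothelial at 74.1 ± 20.1 against 4.33 ± 2.77 FPKM. The mural genes were named after their values were seen.

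In the pairs held within endothelium, the transcripts of both the ligand and the receptor were higher in endothelium. Apln, the ligand of Aplnr, ranged from 5.48 to 37.2 FPKM (median 15.0) in endothelium and from 0.02 to 0.66 FPKM (median 0.08) in mural cells. The range in endothelium was wide but lay above all mural values, and the difference was 3.71 ± 0.30 (SE; adjusted p = 1.24e-07). Cxcl12, the chemokine that attracts progenitors, ranged from 63.4 to 111 FPKM (median 81.1) in endothelium and from 8.97 to 13.1 FPKM (median 9.97) in mural cells, and its receptor Cxcr4 ranged from 25.7 to 57.0 FPKM (median 40.5) in endothelium and from 2.56 to 7.70 FPKM (median 4.75) in mural cells. Kitl, stem cell factor, ranged from 99.8 to 118 FPKM (median 104) in endothelium and from 24.6 to 31.8 FPKM (median 26.7) in mural cells, and its receptor Kit ranged from 29.0 to 70.8 FPKM (median 48.2) in endothelium and from 2.44 to 4.51 FPKM (median 3.10) in mural cells. In all 4 genes the endothelial libraries lay above every mural library. Sema6a and Plxna2, a transmembrane semaphorin and a plexin, averaged 96.3 ± 13.3 FPKM in endothelium against 5.24 ± 1.72 FPKM in mural cells and 48.2 ± 4.48 against 13.7 ± 0.69 FPKM, and Sema3g, a secreted semaphorin of arteries, 19.6 ± 3.41 against 0.09 ± 0.11 FPKM. Tnfsf10, the death ligand TRAIL, and its receptor Tnfrsf10b averaged 51.9 ± 13.8 against 0.76 ± 0.49 FPKM and 21.4 ± 5.35 against 1.66 ± 0.55 FPKM. Dhh, a hedgehog ligand, averaged 10.3 ± 2.88 against 2.11 ± 0.70 FPKM beside its receptor Ptch1 at 8.26 ± 0.47 against 5.63 ± 0.83 FPKM. Il6st, the shared signalling chain of the interleukin-6 family, was high in both layers, at 199 ± 51.1 against 91.0 ± 11.3 FPKM.

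Pairs held within mural cells included those of angiotensin and fibroblast growth factors. Ntrk2 and Ntrk3, receptors of neurotrophins, averaged 0.63 ± 0.62 FPKM in endothelium against 11.9 ± 1.64 FPKM in mural cells and 0.03 ± 0.05 against 4.43 ± 3.49 FPKM. Agt, angiotensinogen, averaged 0.53 ± 0.66 against 13.0 ± 4.12 FPKM, and its receptor Agtr1a 0.26 ± 0.36 against 8.53 ± 2.17 FPKM, while Ace, the enzyme that makes the active peptide, was endothelial at 30 ± 5.67 against 1.59 ± 1.87 FPKM and Enpep, which degrades it, mural at 0.24 ± 0.25 against 8.03 ± 1.10 FPKM. Fgf1 and Fgf2 averaged 2.21 ± 1.68 against 28.3 ± 4.45 FPKM and 1.13 ± 0.71 against 9.08 ± 10.6 FPKM and their receptor Fgfr1 5.33 ± 1.47 against 14.9 ± 2.33 FPKM. The mural mean of Fgf2 rests on CD146 Trap replicate 2 at 30.2 FPKM, without which it was 4.86 FPKM, and neither Fgf2 nor Fgfr1 passed in controls alone (adjusted p = 0.282 and 0.0674). Wnt signalling was represented by Rspo3 and Lgr4 at 1.18 ± 1.16 against 3.53 ± 1.05 FPKM and 4.54 ± 1.54 against 17.8 ± 2.87 FPKM, and by Ror2, a receptor of Wnt5a, at 0.12 ± 0.11 against 6.64 ± 1.31 FPKM. Lrp1, a scavenger receptor that binds midkine, averaged 1.03 ± 0.57 against 26.9 ± 2.13 FPKM and Mdk, midkine, 3.16 ± 1.68 against 7.76 ± 1.40 FPKM.

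Among pairs that were not sorted, Thbs1, thrombospondin-1, was abundant in both layers. It ranged from 215 to 473 FPKM (median 331) in endothelium and from 196 to 409 FPKM (median 292) in mural cells, and the groups overlapped. The difference of 0.13 ± 0.17 (SE; adjusted p = 0.576) had a 95% confidence interval of -0.23 to 0.49. Its receptors Cd36 and Cd47 were both higher in endothelium, and Cd47 averaged 75.5 ± 11.6 FPKM in endothelium against 41.6 ± 3.60 FPKM in mural cells. Igf1r, the receptor of insulin-like growth factors, averaged 22.4 ± 3.72 against 26.2 ± 2.61 FPKM and did not pass after adjustment. The 95% confidence interval of its difference, which is not adjusted for the number of genes tested, was -0.45 to -0.01. Npnt, nephronectin, did not pass either, at 10.7 ± 4.82 against 6.72 ± 8.38 FPKM (adjusted p = 0.151), although its integrin subunit Itga8 was mural, and without CD146 Trap replicate 2 Npnt passed with a difference of 1.59 and an adjusted p of 0.0205. Ramp2 and Calcrl, which together form the receptor of adrenomedullin, were higher in endothelium at 43.9 ± 8.14 against 0.90 ± 0.54 FPKM and 77.8 ± 24.6 against 49.6 ± 11 FPKM. Ptn, pleiotrophin, was mural at 8.36 ± 2.36 against 118 ± 25.2 FPKM, but its receptor Alk was not tested. In all, 10 ligands and 3 receptors were not tested because they did not reach 1 FPKM in 2 libraries.

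Nitric oxide and lipids, through which endothelium is known to act on mural tone without a peptide ligand, were examined next. Of 15 genes of nitric oxide and cyclic GMP signalling, 8 were higher in mural cells and 5 in endothelium. Nos3, the endothelial nitric oxide synthase, ranged from 7.24 to 16.3 FPKM (median 11.7) in endothelium and from 0 to 0.12 FPKM (median 0.01) in mural cells. Soluble guanylate cyclase is the receptor of nitric oxide. The subunits Gucy1a3 and Gucy1b3 averaged 7.20 ± 4.25 FPKM in endothelium against 155 ± 17.3 FPKM in mural cells and 2.63 ± 1.52 against 82.1 ± 11.1 FPKM, and Gucy1a2 0.60 ± 0.66 against 29.7 ± 2.56 FPKM. Below the receptor, Prkg1, the kinase that cyclic GMP activates, averaged 1.11 ± 0.39 against 38.1 ± 3.24 FPKM, its substrate Mrvi1 1.23 ± 1.15 against 41.7 ± 4.88 FPKM, and the phosphodiesterases Pde5a and Pde3a 1.28 ± 0.99 against 36.5 ± 1.46 FPKM and 4.34 ± 3.80 against 162 ± 6.80 FPKM. Each of these 7 genes was higher in all 6 mural libraries than in any endothelial one. Ddah1, which breaks down an inhibitor of nitric oxide synthases, was on the side of Nos3 at 27.8 ± 6.84 against 3.72 ± 1.22 FPKM.

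Sphingosine-1-phosphate, the lipid that guides T cells out of the thymus, had a transporter and 1 receptor in endothelium and other receptors in mural cells. S1pr1 ranged from 87.6 to 132 FPKM (median 111) in endothelium and from 3.47 to 5.25 FPKM (median 3.90) in mural cells, and S1pr3 ranged from 0.41 to 1.91 FPKM (median 1.10) in endothelium and from 53.5 to 103 FPKM (median 87.9) in mural cells. The ranges were fully separated in opposite directions, with differences of 4.41 ± 0.14 and -5.30 ± 0.18 (SE; adjusted p = 2.88e-12 and 5.92e-12). Spns2, the exporter, averaged 22.2 ± 1.19 FPKM in endothelium against 3.13 ± 0.67 FPKM in mural cells, the phosphatases Plpp1 and Plpp3, which degrade the extracellular lipid, 38.0 ± 7.91 against 13.8 ± 2.91 FPKM and 58.8 ± 15.3 against 22.7 ± 3.14 FPKM, and Sgpp1, a phosphatase inside the cell, 3.10 ± 1.75 against 17.2 ± 2.18 FPKM.

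Of 22 channels and receptors of contraction tested, 16 were higher in mural cells and 1 in endothelium. Cacna1c, the L-type calcium channel, averaged 0.77 ± 0.39 FPKM in endothelium against 41.6 ± 6.46 FPKM in mural cells, Ano1, a chloride channel, 2.46 ± 1.55 against 100.5 ± 23.3 FPKM, and Avpr1a, the vasopressin receptor, 0.35 ± 0.37 against 36.8 ± 7.12 FPKM. Ryr2, a calcium release channel, averaged 0.01 ± 0.02 against 8.58 ± 1.37 FPKM and Trpc6, a cation channel, 0.13 ± 0.22 against 8.96 ± 1.27 FPKM. Adra2a, an adrenergic receptor, averaged 2.08 ± 1.16 against 17.7 ± 4.55 FPKM. The endothelial exception was F2r, the thrombin receptor PAR1, at 156 ± 14.1 against 49.3 ± 14.2 FPKM. All 10 genes of leukocyte adhesion tested were higher in endothelium, with a median of 2.75. Selp, P-selectin, ranged from 96.3 to 176 FPKM (median 122) in endothelium and from 0.13 to 1.60 FPKM (median 0.35) in mural cells, and Sele, E-selectin, which mural libraries also held, averaged 143 ± 40.9 against 22.9 ± 7.16 FPKM. Of 10 cell cycle genes, 6 were higher in mural cells and none in endothelium. Mki67, a marker of cycling cells, averaged 22.0 ± 16.4 against 45.1 ± 21.2 FPKM and Kif11, a kinesin of the mitotic spindle, 5.10 ± 5.29 against 14.9 ± 6.37 FPKM. These means pool treatments that lay apart in endothelium, where Mki67 ranged from 37.7 to 47.3 FPKM in controls and from 6.37 to 15.0 with Trap. In controls alone, neither passed, with a difference of -0.50 for Mki67 (adjusted p = 0.306) and -0.86 for Kif11 (adjusted p = 0.0794). Of the 10 genes, none was higher in mural cells in controls alone (1 at an unadjusted p under 0.05) and 5 were in Trap libraries alone. Ccnd1, cyclin D1, named after its values were seen, did not pass over the 12 libraries (adjusted p = 0.106) and was higher in endothelium in controls alone, by 2.39 (adjusted p = 0.00741).

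The difference between the layers was compared between treatments. All 142 ligand and receptor genes called over the 12 libraries had the same direction in the control libraries (2 against 2) and in the Trap libraries (4 against 4), in each case as the difference of means. The genes were chosen by their calls over these same libraries. That choice largely sets the shared direction, which is therefore no separate finding. On these fewer libraries some calls were lost, and of the genes named here 24 did not pass in the control libraries alone (Bmp4, Calcrl, Dhh, Ednrb, Fgf2, Fgfr1, Gas6, Hbegf, Hes1, Hey1, Hey2, Hgf, Itga5, Itgav, Jam3, Kif11, Mdk, Mki67, Ntrk3, Pdgfd, Ptch1, Rspo3, Tgfb1 and Zfpm2), with adjusted p from 0.052 to 0.644. In the Trap libraries alone, 7 did not pass (Calcrl, Gas6, Pdgfra, Pgf, Ptch1, Rspo3 and Zfpm2), with adjusted p from 0.053 to 0.183. In limma's test of the interaction between population and treatment, 0 of 13755 genes passed at an adjusted p under 0.05, the smallest adjusted p was 0.485, and 653 genes (4.75%) had an unadjusted p under 0.05. Of the 164 ligand and receptor genes tested, 12 had an unadjusted p under 0.05. Among these, Edn1 ranged from 90.9 to 104 FPKM in endothelial controls and from 148 to 244 with Trap, so the layers differed by 5.45 in controls and 6.75 with Trap (interaction unadjusted p = 0.0194, adjusted p = 0.992). Aplnr ranged from 252 to 281 FPKM in endothelial controls and from 178 to 205 with Trap, and the difference was 7.77 and 6.75 (unadjusted p = 0.00249, adjusted p = 0.87). For Pdgfrb the difference was -4.69 in controls and -5.55 with Trap (unadjusted p = 0.00742, adjusted p = 0.916). For Tek the difference was 4.69 and 5.40 (unadjusted p = 0.0188, adjusted p = 0.992). None of these passed after adjustment.

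**Figure D5:**
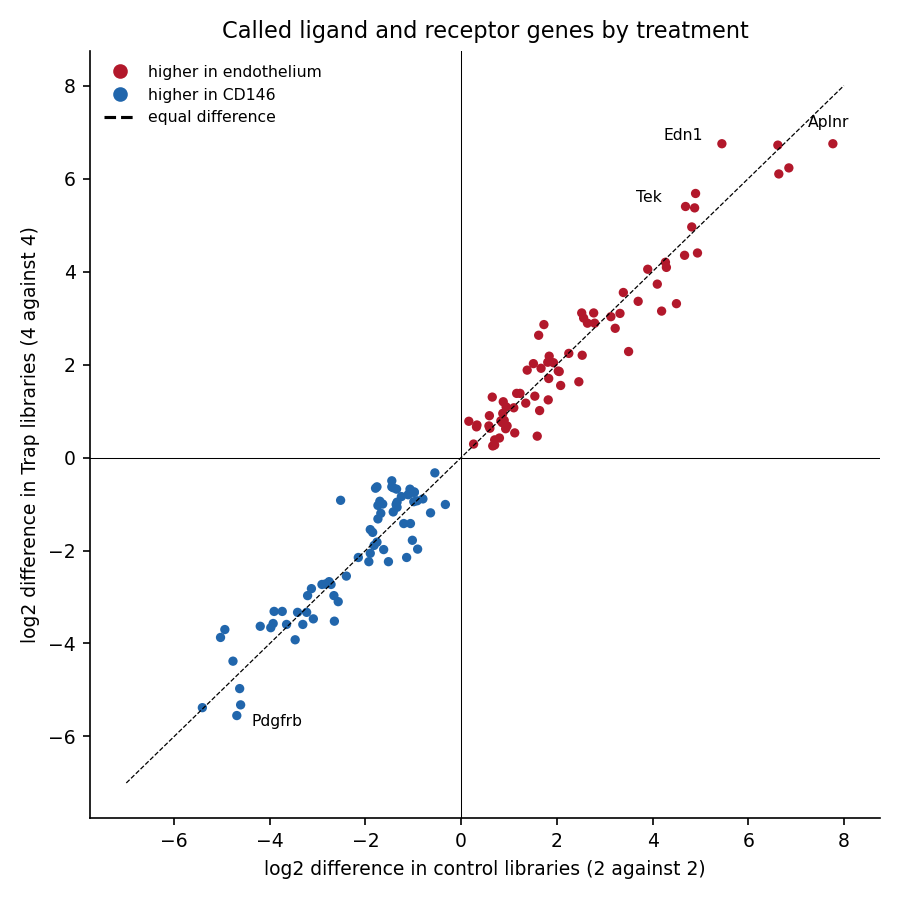
Difference between the layers (log2, positive is higher in endothelium) in the 2 against 2 control libraries (horizontal axis) and in the 4 against 4 Trap libraries (vertical axis), for each called ligand or receptor gene. The dashed line marks equal differences, and every red point lies above 0 and every blue point below 0 on both axes, as Edn1 at 5.45 and 6.75 and Pdgfrb at -4.69 and -5.55 do. The choice of genes by their calls over the same libraries largely sets this pattern.

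The other 3 stromal populations give the frame for some of these levels, as means of 6 libraries with no test. Vegfa averaged 58.0 FPKM in CD140a-positive mesenchyme, 23.7 in cortical epithelium and 13.9 in medullary epithelium, so the mural level of 21.6 was not the highest in the thymic stroma. Gas6 averaged 138 FPKM in cortical epithelium, above its level in both vessel layers, and Slit3 113 FPKM and Ptn 667 FPKM in CD140a-positive mesenchyme. Ccl2 in CD140a-positive mesenchyme averaged 265 FPKM. Angpt1, in contrast, averaged at most 5.48 FPKM in the other 3 populations, against 11.1 in mural cells, and Edn1 at most 10.4 FPKM against 165 in endothelium. Pdgfrb averaged 36.6 FPKM and Ednra 47.5 FPKM in CD140a-positive mesenchyme. Rgs5, given above as a pericyte marker, averaged 539 FPKM in medullary epithelium.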

How the data were processed

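RNA of sorted thymic cells was amplified with the Ovation kit, made into libraries and sequenced in pairs of reads, per the labels' protocols. Per the submitters' processing notes, bcl2fastq 2.17, STAR and DESeq2 were used with the builds GRCm38 and mm10. What each tool did, and the annotation and counter, is not given in the sources used here. FPKM values were deposited by the authors for 18847 protein-coding genes in all 30 libraries. Of these, 18836 were found in GENCODE M21 by identifier, and 27 symbols that had become dates were restored. No whole reads could be recovered from the steps between low FPKM values (best score 0.220 to 0.415 where 1 would be exact, against 0.244 to 0.400 with gene lengths shuffled), so depth is unknown and precision rests on the spread between libraries.

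From the FPKM values deposited by the authors, log2(FPKM + 1) was computed here. limma 3.58.1 in R 4.3.3 fitted population with treatment as a blocking factor over the 12 libraries, with empirical Bayes moderation and a variance trend. Tests were two-sided, and p-values were Benjamini-Hochberg adjusted over all 13755 genes. Genes needed 1 FPKM in at least 2 libraries. The interaction of population and treatment was fitted on the 4 group means. The script was tested on simulated data. Library replicates carry numbers shared between the populations, but the labels do not say that a number marks shared animals.

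The 116 pairs and 24 gene lists were written from general knowledge with earlier results of these data known. Named were the 10 largest non-overlapping differences in each direction at 5 FPKM or more (sex-linked genes and identifier-only symbols left out), all pair genes, up to 6 genes of smallest p of each other list (10 for transcription factors, contraction and cyclic GMP), and the markers Pecam1, Mcam and Rgs5. Genes behind small counts were named after their values were seen, not all members are printed, and 1 result is not reported here. Alternatives covered the pseudocount, filter, scaling, covariates and libraries.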

Additional observations from a re-analysis of the deposited data

Results flagged for a closer look

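For the named genes, 368 sets of 6 libraries were examined for a value that stood far from the other 5, and 15 had one, where chance alone gives about 1 in 20. In endothelium, Endo Trap replicate 2, the library with the highest sums of epithelial markers, was high for Inhba (2.58 FPKM), Calcrl (126.66), Actg2 (1.28) and Cdh11 (3.25) and low for Plpp1 (21.95). Endo Trap replicate 4 was low for Notch3 (0.20 FPKM), and Endo control replicate 1 was high for Acta2 (18.81 FPKM). Among the mural libraries, CD146 Trap replicate 2 was low for Axl (87.03 FPKM) and high for Alk (1.40) and Lrp1 (31.10). CD146 Trap replicate 1 was low for Mdk (5.14 FPKM) and high for Meox1 (4.95). CD146 control replicate 1 was low for Elk3 (11.72 FPKM), and CD146 control replicate 2 was high for Dlk1 (13.11) and Pde3a (175.02). The calls of the 14 of these genes that were tested did not change when the library in question was left out. CD146 Trap replicate 4 also stood apart in the number of genes at 1 FPKM or more, 11264, the lowest of the 6 mural libraries.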

How the results depend on the processing

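All 194 named genes that passed kept their direction under each of the alternatives in which they were tested, and 168 kept their call there as well. Of the 194, 178 were tested in all 25 alternatives and 16 were not, all 16 being untested with at least 5 FPKM in at least 6 libraries. Of the calls that changed, 24 were lost with the 2 against 2 control libraries alone and 7 with the Trap libraries alone, and any single library left out cost at most 2. Thbs1, which did not pass, changed sign with quantile normalization (-0.04), in controls alone (-0.29) and without CD146 Trap replicate 2, and leaving out 1 library at a time moved it between -0.01 and 0.22. Leaving out 1 library lowered the low mean of Vtn in endothelium from 1.34 to 0.826 FPKM (Endo Trap replicate 4), and of Ace and Erg in mural cells from 1.59 to 0.952 and from 1.35 to 0.862 FPKM (CD146 Trap replicate 2). For both Ace and Erg, CD146 control replicate 1 was the next highest mural library, at 2.92 and 2.93 FPKM. Rescaling to TPM moved the median difference of all genes from -0.10 to -0.20.

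With at least 5 FPKM in at least 6 libraries, which tests fewer genes, 1757 were higher in mural cells, 766 and 818 differed at least 2-fold in endothelium and mural cells, and 6 pairs were sorted within mural cells. A pseudocount of 5 FPKM gave 671 and 650 genes at 2-fold. The control libraries alone gave 1032 genes higher in endothelium, 1029 higher in mural cells and 974 at 2-fold in mural cells, with 8 pairs from endothelium to mural cells, 11 from mural cells to endothelium and 9 within mural cells, on fewer samples. The Trap libraries alone gave 11 pairs within mural cells. The interaction gave 3 genes with no filter and 1 with all 30 libraries, and the cause was not tested.

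Leaving out each library in turn gave 1952 to 2260 genes higher in endothelium and 2547 to 2950 in mural cells, and 1168 to 1237 and 1518 to 1586 at 2-fold. Pairs numbered 12 to 14 from endothelium to mural cells, 18 to 23 in the opposite direction, 24 to 26 within endothelium and 14 to 18 within mural cells, and the interaction gave 0 genes each time.

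The replicate numbers were not taken to pair the libraries, since the labels do not say that a number marks shared animals. The deviations of libraries of the same number from their group means correlated at 0.0472 to 0.0628, and each of the 6 correlated best with its own number. Whether a number marks a shared source is therefore unknown. With 2 control libraries per population, a match of 1 control number forces that of the other, and both gave 0.0484. With the replicate block, 2162 genes were higher in endothelium and 2898 in mural cells, and no named call was lost. FPKM values hold no depth, so what depth limits cannot be given.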
